A study of Homo sapiens with 12 samples.

Results

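The genes described here are 9 members of the plasminogen activator system and of the clotting steps linked to it: PLAU, PLAT, PLAUR, SERPINE2, SERPINB2, ANXA2, S100A10, F3 and THBD. They were taken by symbol, matched to Ensembl identifiers, from the 58174 genes in the tables of U87 and U118, which are established human glioblastoma cell lines, and each of the 9 was found in both tables. In each cell line, mRNA sequencing compared cells that the labels call sensitive with cells that they call resistant to temozolomide (TMZ), an alkylating drug used against glioblastoma. The study describes the sensitive cells as control cells and the resistant cells as aggregations that formed after treatment with TMZ at 50 μM. Both were grown from cells that had been sorted as CD133- and CD15- and cultured with serum and BMP2, so the controls carry the sort and the BMP2 as well. Each of the 4 groups had 3 libraries, which makes 12. The labels do not say whether the 3 libraries of a group came from separate cultures, so the p-values below measure the spread between libraries, which may be technical.

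Plasminogen circulates as an inactive precursor and is cut to plasmin, a broad protease that dissolves fibrin and matrix proteins, by urokinase (from PLAU) or by tissue-type plasminogen activator (from PLAT). The urokinase receptor (PLAUR) and the complex of annexin A2 with S100A10 hold the activators and plasminogen at the cell surface, while serpins such as protease nexin (SERPINE2) and plasminogen activator inhibitor type 2 (SERPINB2) trap the activators. Tissue factor (F3) starts clotting, and thrombomodulin (THBD) turns thrombin toward activation of protein C. In glioma, urokinase and its receptor are known for their part in invasion through brain matrix, and tissue factor for the thrombosis that often accompanies the tumour.

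The measurement was TPM, an abundance that scales each gene for transcript length and each library to the same total. TPM allows levels to be compared between genes, keeps no read counts, and leaves the depth of each library unknown. From 13270 to 15290 genes reached 1 TPM in a library. Mitochondrially encoded genes took 12.9% to 16.9% of TPM in U87 sensitive, 22.2% to 23.7% in U87 resistant, 7.42% to 19.7% in U118 sensitive and 13.2% to 29.9% in U118 resistant libraries. Over 16382 genes, the U118 resistant libraries had Spearman correlations of 0.808 to 0.839 with the U118 sensitive libraries as against 0.895 to 0.913 with those of U87. All 3 libraries of that group stand closer to the other cell line than to the cells they are compared with, so no comparison in U118 can be given without them. The U118 sensitive libraries had correlations of 0.783 to 0.831 with U87 sensitive and of 0.789 to 0.817 with U87 resistant libraries. They were thus the group least like the others. Which U118 group departs from its line cannot be told from these values, so the identity of the cells is in doubt for both. A change with TMZ and a difference in the origin of the cells cannot be told apart in any U118 comparison below, nor in a difference between the lines. Where a gene is said to rise or fall in U118, it was higher or lower in the libraries labelled resistant than in those labelled sensitive. Within the U118 resistant group, replicate 1 had correlations of 0.960 and 0.967 with the other libraries, which had 0.987 with each other. Values without that replicate are given below where it decides a result. The mesenchymal marker VIM, at group means of 4689 to 6056 TPM, and CD44, at 345 to 801 TPM, were high in every group, whereas the glial markers GFAP, S100B and SOX2 stayed under 1 TPM in all 12 libraries. Of the other markers on that list, OLIG2 was at 1.45 to 4.45 TPM in the U87 libraries and 0 to 1.05 TPM in the U118 libraries, and NES was at 5.76 to 24.1 TPM.

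Differences are given as resistant minus sensitive on the scale of log2(TPM + 1), with the standard error (SE) from limma fitted over all genes that reached 1 TPM in 3 or more libraries of a line, a filter that all 9 members passed in both lines. A gene was called where its p, adjusted by Benjamini-Hochberg, was under 0.05 and its log2 difference was at least 1 in size. In U87, PLAU, SERPINE2 and F3 were called higher in resistant cells and no member was called lower, where 3.03% of the 13845 genes tested were called higher and 7.79% lower. In U118 no member was called higher, and SERPINE2 and THBD were called lower, where 8.64% of the 15527 genes tested were called higher and 26.6% lower. The 2 of 9 members called lower in U118 are a share near the 26.6% of all genes. At an unadjusted p under 0.05 in limma, members not called also differed. In U87, PLAT and S100A10 were then higher and THBD lower, and in U118, S100A10 and F3 were higher and ANXA2 lower. The share of all genes tested at that unadjusted threshold was not worked out, so these are not read as a result. Among all genes tested, the median difference was -0.24 in U87 and -0.52 in U118. Under median-ratio scaling these medians moved to -0.01 and -0.02, and the genes called became 663 higher and 543 lower in U87, in place of 419 and 1078, and 2337 higher and 1981 lower in U118, in place of 1341 and 4134.

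**Figure D1:**
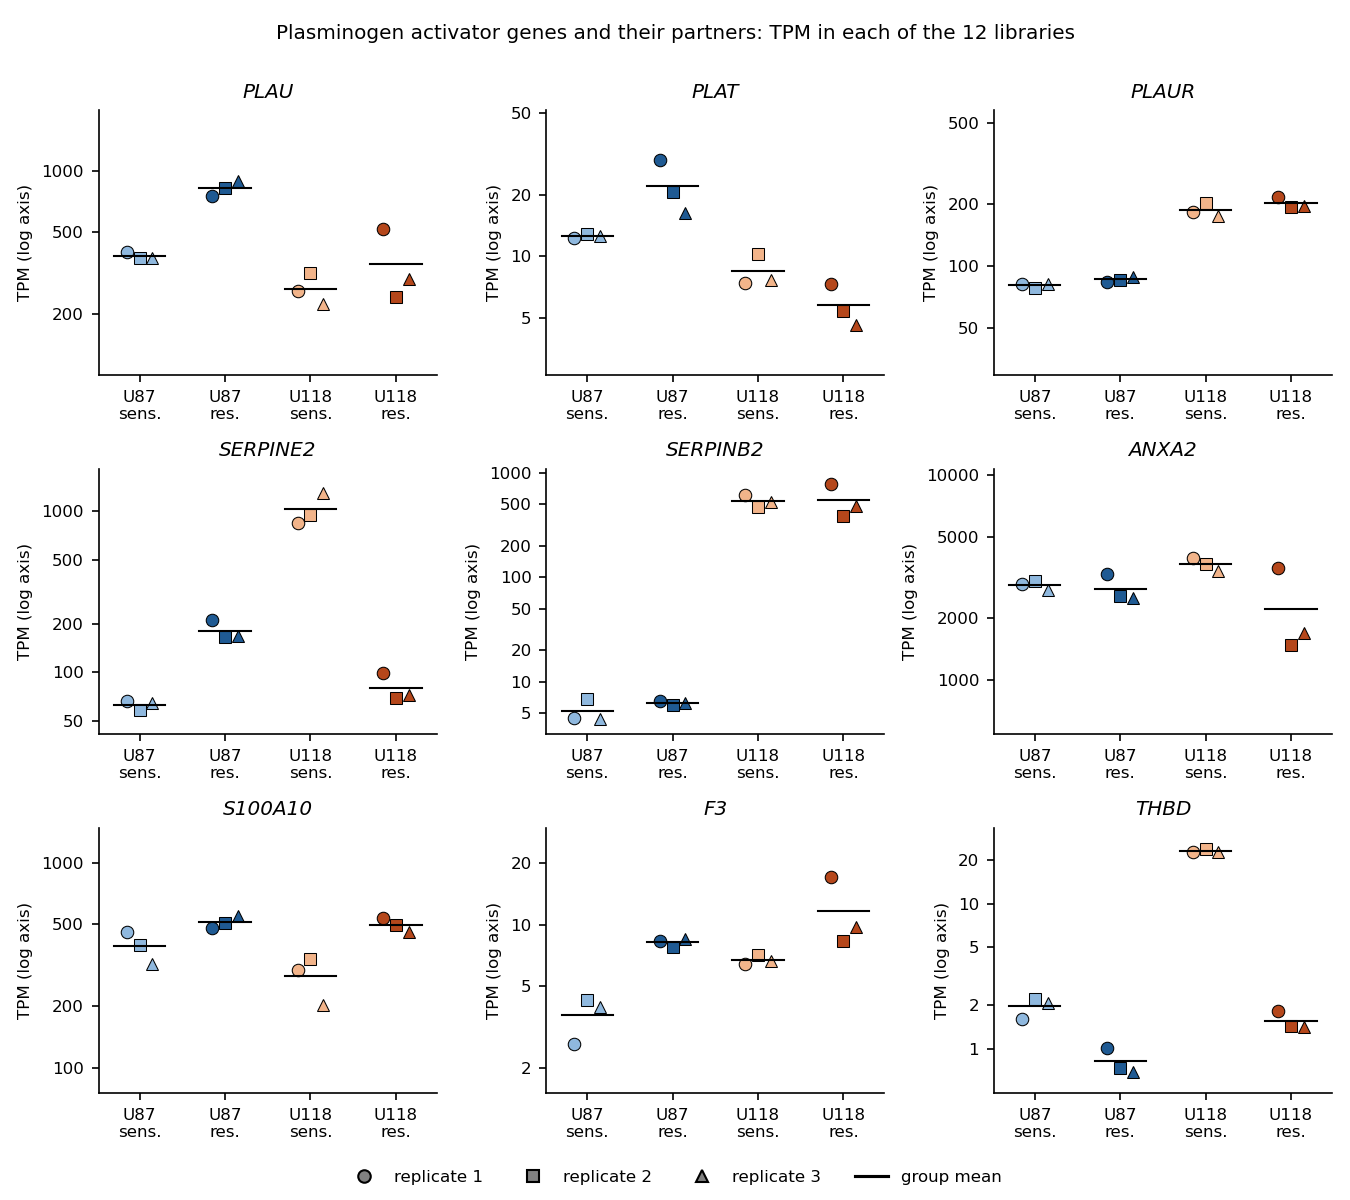
TPM of the 9 members in each of the 12 libraries, on log axes, with colour for the group, symbol for the replicate number and a bar at the group mean (3 libraries per group). SERPINE2 and THBD sit highest in U118 sensitive cells and fall to the range of the U87 groups in U118 resistant cells, while SERPINB2 stays at 384 to 778 TPM in both U118 groups and under 10 TPM in both U87 groups.

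The upstream sequences of the 3 genes called higher together in U87 and of SERPINB2, the member with the widest range between the lines, are shown from the RefSeq promoter table (GRCh38.p14), each as the 250 bases before a transcription start, read 5′ to 3′ on the strand of the gene. Capitals mark matches, on either strand, to the AP-1 motif TGANTCA or to the kB-like motif GGANTTTCC. The windows are chr10:73910882-73911131 on the plus strand for PLAU, chr2:224038641-224038890 on the minus strand for SERPINE2, chr1:94541760-94542009 on the minus strand for F3 and chr18:63887455-63887704 on the plus strand for SERPINB2.
PLAU: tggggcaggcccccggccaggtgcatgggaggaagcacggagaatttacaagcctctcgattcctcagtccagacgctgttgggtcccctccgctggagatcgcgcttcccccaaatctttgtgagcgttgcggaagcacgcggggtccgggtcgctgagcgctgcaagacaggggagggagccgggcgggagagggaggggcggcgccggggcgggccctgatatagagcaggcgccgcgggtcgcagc
SERPINE2: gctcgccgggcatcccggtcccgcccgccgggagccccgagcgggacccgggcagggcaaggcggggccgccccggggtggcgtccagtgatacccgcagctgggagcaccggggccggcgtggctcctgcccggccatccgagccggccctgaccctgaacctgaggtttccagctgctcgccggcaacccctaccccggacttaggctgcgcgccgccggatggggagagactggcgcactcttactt
F3: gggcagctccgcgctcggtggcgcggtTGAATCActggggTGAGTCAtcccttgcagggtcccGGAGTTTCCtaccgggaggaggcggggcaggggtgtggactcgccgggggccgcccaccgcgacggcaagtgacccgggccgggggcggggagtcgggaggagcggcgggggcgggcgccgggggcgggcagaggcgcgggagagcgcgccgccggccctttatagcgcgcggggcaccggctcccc
SERPINB2: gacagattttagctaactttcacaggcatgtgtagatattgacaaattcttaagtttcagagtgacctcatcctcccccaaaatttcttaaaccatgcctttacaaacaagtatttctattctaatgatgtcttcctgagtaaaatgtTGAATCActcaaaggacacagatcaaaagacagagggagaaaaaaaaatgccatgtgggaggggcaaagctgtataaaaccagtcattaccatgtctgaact
F3 held 2 AP-1 matches, beginning at positions -223 and -210 from the start site, and 1 kB-like match at -187. SERPINB2 held 1 AP-1 match at -102. The windows of PLAU and SERPINE2 held neither motif, nor did the other window that the table gives for each of these genes. PLAUR and ANXA2 held an AP-1 match at -186 and -127, and S100A10 held none. Of all 35116 windows in the table, read over the 250 bases before and 50 after a start, 7.71% held the AP-1 motif and 1.64% the kB-like motif. The motifs do not overlap, and a match describes the letters only. Of the members, 7 had a window used here, and PLAT and THBD had none.

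PLAU (ENSG00000122861, chr10:73909177-73917497), the gene of urokinase, was the more abundant activator in every library and rose in U87 resistant cells. Its TPM was 399, 377 and 376 in U87 sensitive libraries and 752, 819 and 889 in U87 resistant libraries, with no overlap between the groups. The means of 384 ± 13.3 and 820 ± 68.6 TPM (SD, n = 3) gave a 2.13-fold ratio and a log2 difference of 1.09 (SE 0.076, limma with Benjamini-Hochberg adjusted p = 0.000136). The call held without each library in turn, with differences of 1.03 to 1.15. In U118 the TPM of PLAU was 258, 315 and 224 in sensitive libraries and 517, 243 and 296 in resistant libraries. Replicate 1 alone was above the sensitive range there, the other resistant libraries lay within it, and the log2 difference of 0.34 (95% interval -0.34 to 1.02, limma adjusted p = 0.359) became 0.03 without that library and 0.90 under median-ratio scaling (limma adjusted p = 0.00839), still under the fold threshold. The gene C10orf55 lies on the opposite strand across PLAU at 0.80 to 2.98 TPM, and whether the counting used strand is not given in the sources used here.

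PLAT (ENSG00000104368, chr8:42175233-42207724), the gene of tissue-type plasminogen activator, was 25.6 to 70.9 times less abundant than PLAU within a library. Its TPM was 12.3, 12.8 and 12.5 in U87 sensitive libraries and 29.4, 20.6 and 16.3 in U87 resistant libraries. All resistant libraries were above all sensitive ones, with a spread among the resistant libraries (22.1 ± 6.69 TPM, SD, n = 3) far wider than among the sensitive ones (12.5 ± 0.25 TPM). The log2 difference of 0.73 (SE 0.206, limma adjusted p = 0.0292) was under the fold threshold, and without U87 resistant replicate 1 it was 0.51 (adjusted p = 0.0546), with adjusted p of up to 0.0814 when other libraries were left out. In U118 the TPM of PLAT was 7.45, 10.2 and 7.65 in sensitive and 7.29, 5.42 and 4.63 in resistant libraries, so the ranges just failed to overlap. The log2 difference there was -0.48 (95% interval -1.06 to 0.09, limma adjusted p = 0.138), and it was at 0.00 under median-ratio scaling. Without U118 resistant replicate 1 it was -0.64 (limma adjusted p = 0.0207), under the fold threshold. The difference between the lines, U118 minus U87, was -1.22 for PLAT (SE 0.326, limma interaction over 12 libraries, adjusted p = 0.0107), which was called, though not without U87 resistant replicate 1 (-0.999).

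PLAUR (ENSG00000011422, chr19:43646095-43670547), the urokinase receptor, differed more between the lines than between the phenotypes. In U87 its TPM was 81.9, 78.1 and 81.7 in sensitive and 83.6, 85.4 and 88.7 in resistant libraries, without overlap. The log2 difference was 0.09 (95% interval -0.07 to 0.26, limma adjusted p = 0.334). The U118 TPM was 183, 203 and 174 in sensitive and 217, 194 and 196 in resistant libraries, a log2 difference of 0.12 (95% interval -0.32 to 0.55, limma adjusted p = 0.628). Both intervals lie below 1 on the log2 scale. Median-ratio scaling gave 0.35 in U87 (limma adjusted p = 0.0619) and 0.67 in U118 (limma adjusted p = 0.0280), under the fold threshold in each line. The U118 level was 2.32 times the U87 level in sensitive and 2.35 times in resistant cells, without overlap of the libraries, a comparison set across separate tables and not tested.

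SERPINE2 (ENSG00000135919, chr2:223975112-224039319), which encodes protease nexin, a secreted inhibitor of thrombin, urokinase and tissue-type activator, moved in opposite directions in the lines. Its TPM in U87 was 66.1, 57.7 and 63.8 in sensitive and 209, 166 and 169 in resistant libraries, so every resistant library was above every sensitive one. The ratio of the means was 2.90 and the log2 difference 1.51 (SE 0.111, limma adjusted p = 0.000166). In U118 the TPM was 840, 944 and 1305 in sensitive and 99.0, 68.6 and 71.9 in resistant libraries, again with no overlap. The sensitive mean of 1030 ± 244 TPM (SD, n = 3) was 12.9 times the resistant mean of 79.9 ± 16.7 TPM, and the log2 difference was -3.67 (SE 0.249, limma adjusted p = 5.69e-06). The rise in U87 and the fall in U118 were both called under each of the 12 alternatives run for each line. The difference between the lines was -5.18 (SE 0.271, limma interaction, adjusted p = 1.94e-08). Among the highest genes of U118 sensitive cells, at rank 73 to 147 of a library, SERPINE2 ranked 1581 to 1756 in U118 resistant cells.

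Fibroblast marker genes moved along with SERPINE2. The summed TPM of the 6 markers listed was 745 to 985 in U118 sensitive and 159 to 333 in U118 resistant libraries, and 39.3 to 42.5 in U87 sensitive and 95 to 109 in U87 resistant libraries. In U118, 5 of 5 tested markers (DCN, LUM, PDGFRA, THY1 and COL1A1) were called lower, PDGFRA from 81.0 to 0.088 TPM. In U87, 2 of 2 tested (LUM and COL1A1) were called higher. Markers of other cell types changed in U118 too. Of 3 tested epithelial markers, KRT8 was called higher, from 1.25 to 11.4 TPM (2.43, limma adjusted p = 0.000195). KRT14 was called lower, from 5.35 to 0 TPM (-2.64, limma adjusted p = 1.73e-05). KRT18, from 0.478 to 1.92 TPM, was not called, and EPCAM, CDH1 and KRT5 were under 1 TPM in all 12 libraries. Of the 6 macrophage markers listed, CSF1R was called higher, from 1.39 to 11.5 TPM (2.36, limma adjusted p = 7.57e-05). Of the others, AIF1 and TYROBP were at 0 and PTPRC and CD14 under 1 TPM in all 12 libraries. ITGAM had group means of at most 1.14 TPM. In U87 neither KRT8 nor CSF1R was called. The part of all these markers in the SERPINE2 result was not tested. In bulk samples fewer cells of a type and less RNA per cell cannot be told apart.

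SERPINB2 (ENSG00000197632, chr18:63871692-63903890), which encodes the largely intracellular plasminogen activator inhibitor type 2, separated the lines and not the phenotypes. Its TPM in U87 was 4.53, 6.83 and 4.43 in sensitive and 6.55, 5.98 and 6.29 in resistant libraries, with overlapping ranges. In U118 it was 616, 468 and 528 in sensitive and 778, 384 and 479 in resistant libraries, also overlapping. The log2 differences were 0.24 in U87 (95% interval -0.20 to 0.67, limma adjusted p = 0.348) and -0.03 in U118 (95% interval -0.68 to 0.62, limma adjusted p = 0.940), the latter with a sign that turned under 5 alternatives. The U118 mean was 102 times the U87 mean in sensitive cells and 87.2 times in resistant cells. SERPINB10, the overlapping neighbour on the same strand, reached at most 0.51 TPM.

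**Figure D2:**
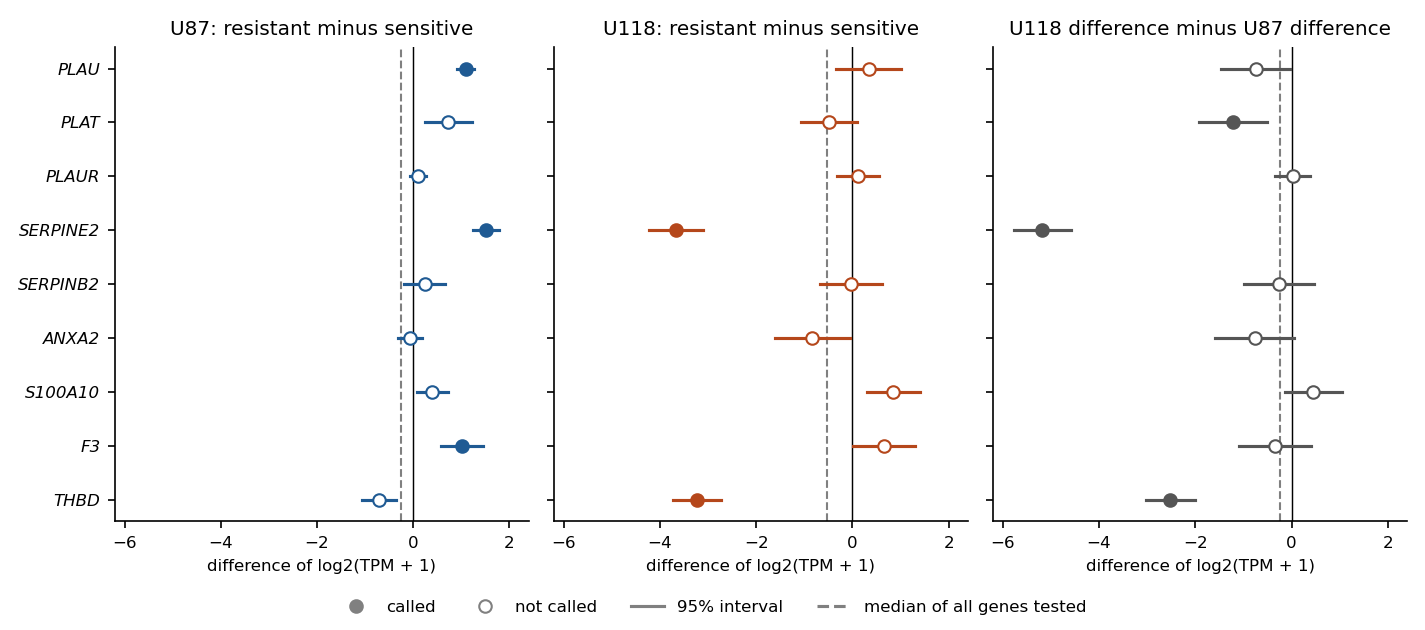
Difference of log2(TPM + 1) between resistant and sensitive cells in U87 (left) and U118 (middle), and the U118 difference minus the U87 difference (right), with 95% intervals from limma (3 libraries per group). Filled points were called (adjusted p under 0.05 and size of at least 1) and the dashed line is the median of all genes tested. SERPINE2 lies at 1.51 in U87 and -3.67 in U118.

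ANXA2 (ENSG00000182718, chr15:60347134-60402883), the gene of annexin A2, was the most abundant member, within the first 70 genes of every library. Its TPM in U87 was 2934, 3025 and 2740 in sensitive and 3269, 2579 and 2503 in resistant libraries, with overlapping ranges. The log2 difference of -0.07 (95% interval -0.33 to 0.19, limma adjusted p = 0.656) changed sign under 3 alternatives. The TPM in U118 was 3946, 3687 and 3412 in sensitive and 3508, 1473 and 1686 in resistant libraries. Resistant replicate 1 lay in the sensitive range and the other resistant libraries were below it. The log2 difference of -0.84 (SE 0.345, limma adjusted p = 0.0692) was not called, while without that library it was -1.22 (adjusted p = 0.00232) and called lower, and under median-ratio scaling it was -0.28 (adjusted p = 0.440). Mitochondrial genes took 13.2% of TPM in that library, against 29.9% and 26.1% in the other resistant libraries, and after those genes were removed the difference was -0.64 (limma adjusted p = 0.0726). The processed pseudogene ANXA2P2 was listed at 8.42 to 42.1 TPM, and reads that ANXA2 shares with it could have been split by the counting.

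S100A10 (ENSG00000197747, chr1:151982915-151994390) encodes the light chain that pairs with annexin A2 and binds plasminogen through its end lysine. Its TPM in U87 was 459, 396 and 321 in sensitive and 478, 510 and 549 in resistant libraries. The ranges did not overlap, and the log2 difference was 0.40 (SE 0.132, limma adjusted p = 0.0506). It was 0.66 under median-ratio scaling (adjusted p = 0.0164) and 0.54 after mitochondrial genes were removed (limma adjusted p = 0.0196), under the fold threshold in each case. In U118 it was 301, 338 and 202 in sensitive and 535, 494 and 459 in resistant libraries, all resistant libraries being above all sensitive ones. The difference of 0.85 (SE 0.243, limma adjusted p = 0.0172) was under the fold threshold. It was called higher under median-ratio scaling (1.41), after mitochondrial genes were removed (1.05) and without U118 sensitive replicate 2 (1.00). Thus in U118, S100A10 was higher in resistant cells at the adjusted p threshold while its partner ANXA2 had a difference below 0.

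F3 (ENSG00000117525, chr1:94529225-94541800), the gene of tissue factor, was at a low level in every group. Its TPM in U87 was 2.62, 4.27 and 3.98 in sensitive and 8.34, 7.79 and 8.47 in resistant libraries, without overlap. The ratio of the means was 2.3 and the log2 difference 1.01 (SE 0.181, limma adjusted p = 0.00508), just over the fold threshold. Without U87 sensitive replicate 1 the difference was 0.84, without resistant replicate 1 it was 0.999 and without resistant replicate 3 it was 0.989, and F3 was then not called. In U118 the TPM of F3 was 6.45, 7.07 and 6.66 in sensitive and 17.0, 8.36 and 9.77 in resistant libraries. Every resistant library was above every sensitive one, replicate 1 by far the most. The log2 difference was 0.66 (95% interval 0.01 to 1.31, limma adjusted p = 0.0810) and 0.38 without that library, while median-ratio scaling gave 1.15 and a call. The U118 difference minus the U87 difference was -0.35 for F3 (95% interval -1.10 to 0.40, limma interaction, adjusted p = 0.449).

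THBD (ENSG00000178726, chr20:23045633-23049741), the gene of thrombomodulin, fell in U118 resistant cells more than any other member relative to its starting level. Its TPM in U118 was 22.5, 23.6 and 22.5 in sensitive and 1.83, 1.43 and 1.42 in resistant libraries, with tight and separate groups. The sensitive mean of 22.9 ± 0.63 TPM (SD, n = 3) was 14.7 times the resistant mean of 1.56 ± 0.23 TPM, and the log2 difference was -3.22 (SE 0.218, limma adjusted p = 5.58e-06). The call held under each of the 12 alternatives run. In U87 the TPM was 1.62, 2.22 and 2.09 in sensitive and 1.03, 0.74 and 0.70 in resistant libraries, also without overlap. The log2 difference there was -0.70 (SE 0.149, limma adjusted p = 0.00979), under the fold threshold, and with a pseudocount of 0.1, which compresses low values less, it was -1.17 and called lower. The TPM of THBD was thus lower in every resistant than in any sensitive library of the same line, and the difference between the lines was -2.52 (SE 0.234, limma interaction, adjusted p = 3.23e-06). Thrombomodulin is best known from endothelium, but the endothelial markers PECAM1, CDH5, CLDN5 and ERG were under 1 TPM in all 12 libraries, and the 7 endothelial markers summed to 2.12 to 5.55 TPM in a library. Of the others, KDR was lower with THBD in both lines, from 3.01 to 1.16 TPM in U87 (-0.89, limma adjusted p = 0.00288, not called) and from 1.23 to 0.059 TPM in U118 (-1.07, adjusted p = 0.000578, called). TEK was called higher in U118, from 0.028 to 2.25 TPM (1.58, limma adjusted p = 0.00154), and VWF had group means of at most 0.948 TPM. The part of these markers in the THBD result was not tested. The fibroblast markers described with SERPINE2 fell in the same U118 libraries, where the epithelial and macrophage markers called there changed in both directions. Their part in the THBD result was not tested either.

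Across the lines, 3 of the 9 members (PLAT, SERPINE2 and THBD) had a called difference between the U118 and the U87 change, each lower in U118, where 18.5% of the 16382 genes tested were called lower and 12% higher. The order of the levels differed by member. SERPINE2 ran from U87 sensitive through U118 resistant and U87 resistant to U118 sensitive cells, with no overlap between neighbours. THBD ran from U87 resistant through U118 resistant and U87 sensitive to U118 sensitive cells, and the middle groups of this order overlapped. PLAU was lowest in U118 sensitive and highest in U87 resistant cells, and the 3 lower groups overlapped with their neighbours. S100A10 was higher in both resistant groups, which overlapped with each other, than in both sensitive groups, which also overlapped. The ranges just failed to meet, at 458.7 TPM in the highest U87 sensitive and 459.3 TPM in the lowest U118 resistant library. Levels of the lines come from separate tables, so these orders were not tested.

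Ratios of TPM within a library, which do not depend on the library's total, show how the balance of partners shifted. Tissue factor over thrombomodulin, F3/THBD, was 1.62, 1.92 and 1.91 in U87 sensitive and 8.12, 10.5 and 12.1 in U87 resistant libraries. In U118 it was 0.287, 0.30 and 0.296 in sensitive and 9.31, 5.83 and 6.88 in resistant libraries. The resistant libraries of both lines thus had ratios above those of all sensitive libraries. Activator over inhibitor, PLAU/SERPINE2, was 6.04, 6.53 and 5.89 in U87 sensitive and 3.59, 4.94 and 5.27 in U87 resistant libraries. In U118 it was 0.307, 0.334 and 0.172 in sensitive and 5.22, 3.55 and 4.12 in resistant libraries, so it moved down in U87 and up in U118. PLAU/PLAUR was 4.6 to 4.87 in U87 sensitive and 8.99 to 10 in U87 resistant libraries, and 1.29 to 1.55 and 1.26 to 2.39 in the U118 groups. ANXA2/S100A10 was 10.9 to 16.9 in U118 sensitive and 2.98 to 6.56 in U118 resistant libraries, without overlap, and 6.40 to 8.54 and 4.56 to 6.84 in the U87 groups, which overlapped. With 3 libraries against 3, an exact two-sided permutation test of a ratio cannot go below p = 0.1, so none was run.

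**Figure D3:**
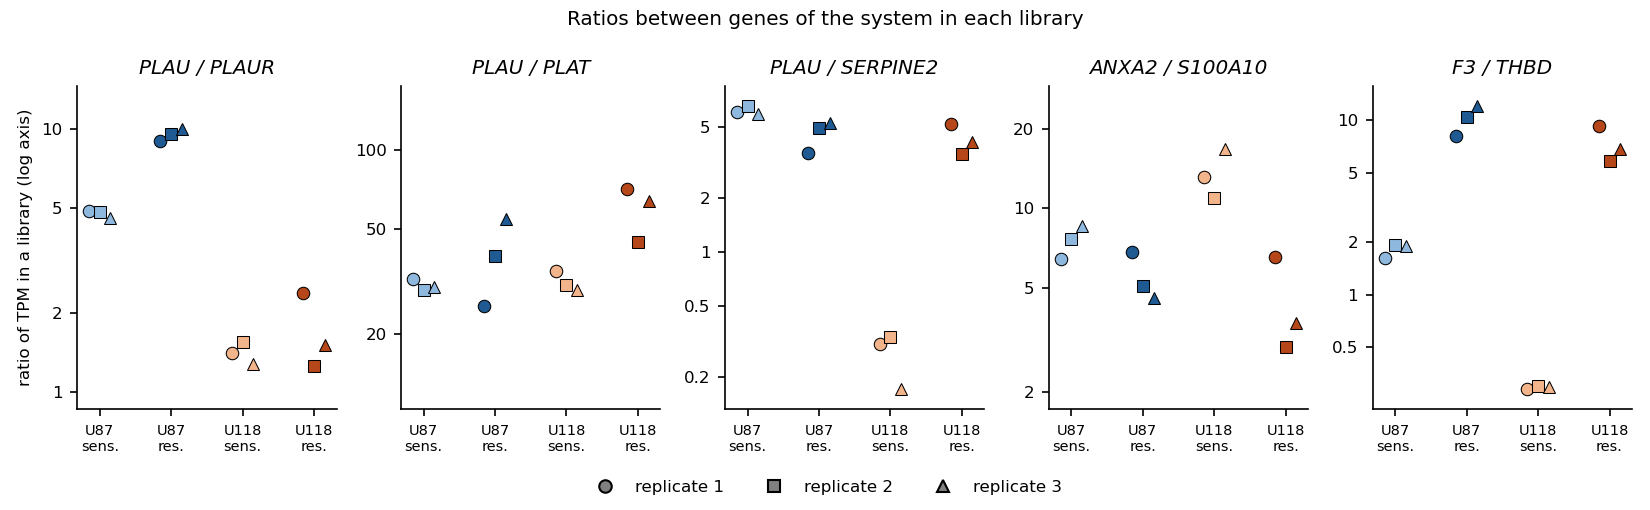
Ratio of the TPM of one gene to that of another within each of the 12 libraries, on log axes, with colour for the group and symbol for the replicate number. F3/THBD lies at 5.83 to 12.1 in the 6 resistant libraries and at 0.287 to 1.92 in the 6 sensitive libraries.

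The wider system was described with 99 other genes in 8 lists. In U87, 55 of them were tested, and 4 were called higher and 3 lower. Of all genes tested there, 3.03% were called higher and 7.79% lower. The median difference was -0.12 beside -0.24 for all genes tested. In U118, 56 were tested, and 10 were called higher and 11 lower, where 8.64% of all genes were called higher and 26.6% lower. The median there was -0.37 beside -0.52. These shares also stand beside the counts of each list below, which are not read as a trait of the lists. Plasminogen itself (PLG) had a group mean of at most 0.008 TPM, close to 0 in every group. Among plasminogen, its receptors and the receptors that take up activator complexes, no gene of 13 tested was called in U87, and 1 higher and 1 lower of 12 in U118.

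On the tissue factor side of coagulation, 2 of 6 tested genes were called higher in U87, and 2 higher and 3 lower of 7 in U118. TFPI2, a Kunitz-type inhibitor of plasmin and of tissue factor with factor VIIa, rose from 25.5 ± 4.17 to 146 ± 7.32 TPM in U87 (log2 difference 2.48, limma adjusted p = 6.23e-05), the largest rise among the list genes of that line. It also rose in U118, from 476 to 1215 TPM (1.34, limma adjusted p = 0.00111). F2R, the thrombin receptor PAR1, rose from 6.57 to 14 TPM in U87 (1.02, limma adjusted p = 0.0126), a call lost without U87 sensitive replicate 1 (0.80) or resistant replicate 1 (0.97) or 3 (0.99). In U118, F2R fell from 78.0 to 7.72 TPM (-3.27, limma adjusted p = 3.97e-05). F2RL2, a related thrombin receptor, fell from 13.8 to 0.71 TPM (-3.13), and F8, clotting factor VIII, from 14.6 to 4.31 TPM (-1.84, limma adjusted p = 0.0101), the latter not past the threshold when no filter on low values was used (adjusted p = 0.0542).

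On the thrombomodulin and protein C side, none of 5 tested genes was called in U87, and 1 higher and 1 lower of 6 in U118. GAS6, a vitamin K-dependent ligand related to protein S, fell from 106 ± 30.6 to 1.99 ± 1.49 TPM in U118 (-5.23, limma adjusted p = 7.22e-06). PROCR, the endothelial protein C receptor, was at 104 to 175 TPM in the 4 groups and was not called in either line.

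Other annexins and S100 proteins changed in U118 in both directions, with 2 annexins higher and 2 lower of 8 tested, and 2 S100 genes higher and 1 lower of 9. ANXA5, which binds phosphatidylserine, fell from 1750 to 423 TPM (-2.08, limma adjusted p = 0.000541) and ANXA6 rose from 51.1 to 188 TPM (1.84, adjusted p = 0.000267). S100A4, a calcium-binding protein that can also bind annexin A2, fell from 350 ± 201 to 9.24 ± 2.73 TPM (-4.90, limma adjusted p = 5.69e-05), while S100A3 rose from 18.0 to 82.0 TPM (2.16) and S100A11 from 766 to 3136 TPM (1.96). U87 had no called annexin of 7 tested and 1 called S100 gene of 8, S100A2, which fell from 40.7 to 13.4 TPM (-1.55, limma adjusted p = 0.000563). Of the 5 partners of annexin A2 and S100A10, none was called in U87 and 2 were called lower in U118.

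Among other serpins, SERPINB7 and SERPINA1 went in opposite directions in the lines. SERPINB7 went from 11 to 2.65 TPM in U87 (-1.71, limma adjusted p = 0.000903) and from 8.20 ± 1.04 to 34.9 ± 26.0 TPM in U118 (1.74, adjusted p = 0.00883). SERPINA1, alpha-1-antitrypsin, fell from 11.5 to 1.88 TPM in U87 (-2.13, limma adjusted p = 0.000255) and was called higher in U118, from 0.051 to 1.96 TPM (1.44, adjusted p = 0.00102). Of this list, 1 gene was called higher and 2 lower of 6 tested in U87, and 2 higher and none lower of 5 in U118. Among other inhibitors of the plasminogen system, 1 of 5 tested was called higher in U87 and 1 of 4 lower in U118, SERPINB6, from 221 to 84.7 TPM (-1.44), a call lost under median-ratio scaling (-0.89).

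**Figure D4:**
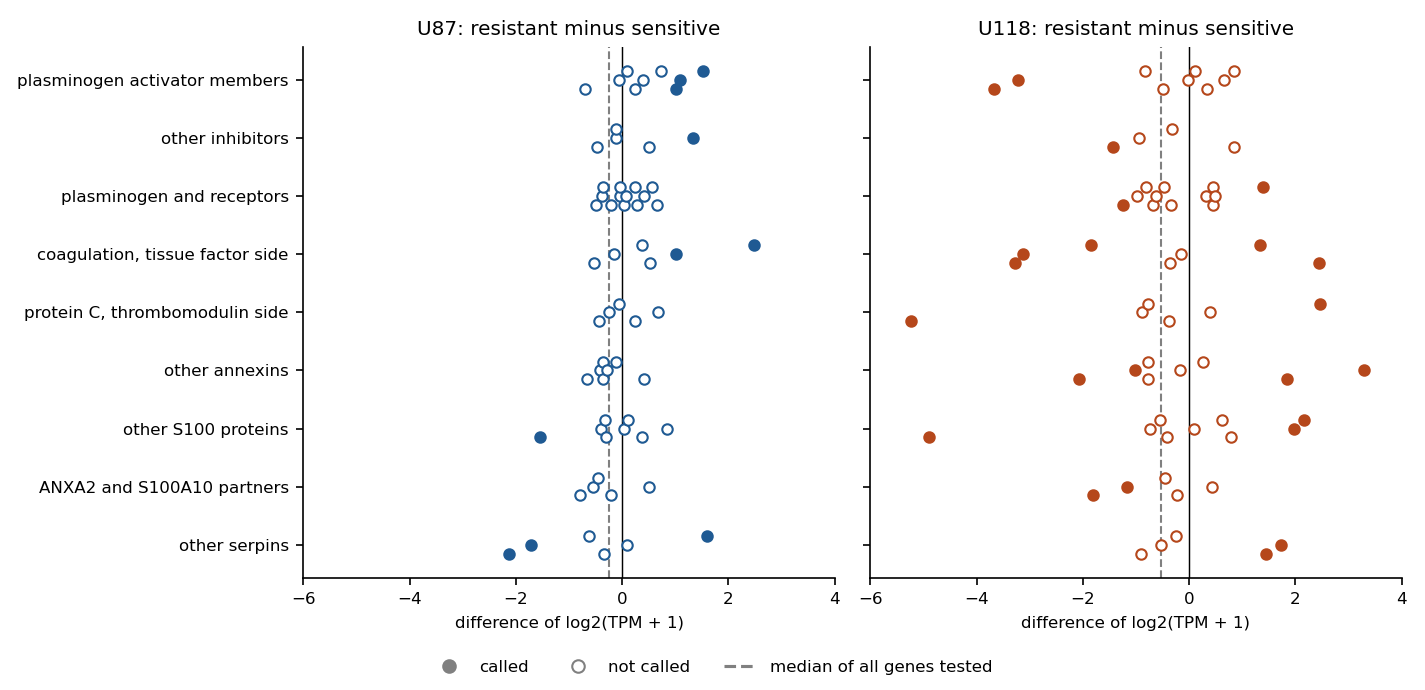
Difference of log2(TPM + 1), resistant minus sensitive, for the 9 members and for the tested genes of the 8 lists in U87 (left) and U118 (right). Each point is a gene, filled where it was called, and the dashed line is the median of all genes tested. More list genes were called in U118 (10 higher, 11 lower) than in U87 (4 higher, 3 lower), on both sides of the line. The same held for all genes tested (8.64% higher and 26.6% lower in U118, 3.03% and 7.79% in U87).

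For the 3 members whose group means spanned at least 2 on the log2 scale, the genes of most similar pattern were found by the root mean square difference of log2(TPM + 1), each gene centred on its mean over the 12 libraries, among 10047 genes. SERPINE2, with a span of 4.0, was most like AK5, EPHA4 and H3C10, at differences of 0.218, 0.297 and 0.369. AK5, for example, had means of 0.101 and 2.0 TPM in U87 sensitive and resistant cells and of 12.3 and 0.307 TPM in the U118 groups. Values this low are compressed on the scale of log2(TPM + 1), so closeness on it does not mean equal fold changes. The fold changes of AK5 were larger than those of SERPINE2 in both lines. THBD, with a span of 3.71, was most like FGF5, MARCKSL1 and CDON, at 0.169, 0.193 and 0.196. SERPINB2 had the widest span, 6.44, and its nearest genes, ASS1, GYPC and FOXC2, were less close, at 0.435, 0.704 and 0.722. The points share libraries and groups, so the likeness is a description of these 12 libraries.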

How the data were processed

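Total RNA of the U87 and U118 cells was made into mRNA libraries with the VAHTS kit. The authors deposited TPM values per gene, in a separate table for each cell line of 58174 Ensembl identifiers. Per the labels, the submitters' processing notes name GRCh38, FastQC 0.11.2, Trimmomatic 0.36, HISAT2 2.0 and bedtools 2.26.0, while the quantification tool, the annotation and the use of strand are not given in the sources used here. Because TPM has a fixed total, a rise in mitochondrial transcripts lowers the values of other genes. Groups and replicate numbers came from the sample titles and phenotype labels, and 0 columns of values were unused.

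Values were fitted as log2(TPM + 1) with limma 3.58.1 (lmFit, eBayes with trend) in R 4.3.3, per line for genes that reached 1 TPM in 3 or more of 6 libraries, and over all 12 libraries for the difference between the lines. The fit was tested on simulated data with known changes first. The sources name no test for the mRNA sequencing. Calls needed p under 0.05 after Benjamini-Hochberg adjustment, with a log2 difference of 1 or more in size. On the log2(TPM + 1) scale the change of genes near 1 TPM is understated. The precision rests on the SD of 3 libraries, since depth is unknown. Alternatives were a pseudocount of 0.1, no filter, a minimum mean of 10 TPM, median-ratio scaling, TPM without the 37 mitochondrial genes, the replicate number as a block, dropping the fold change threshold, and leaving out libraries 1 at a time.

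The members and lists were chosen with earlier results of these data known. Of the listed genes, those called with a group mean of at least 10 TPM were named, at most the 12 with the largest change in each line, and a gene named in 1 line may be given in the other. PLG, PROCR, OLIG2, NES, KDR, TEK and VWF were named after their values were seen. So were AIF1, TYROBP, PTPRC, CD14, ITGAM, EPCAM, CDH1, KRT5 and KRT18. A gene that the rule would name is not reported here. Gene positions came from GENCODE release 29 (GRCh38). Python 3.11.15 with pandas 2.3.3 and matplotlib 3.10.9 made the tables and figures.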

Additional observations from a re-analysis of the deposited data

Results flagged for a closer look

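The change between sensitive and resistant cells differed between the lines for 3 members in limma's interaction over 12 libraries. The U118 difference minus the U87 difference was -5.18 for SERPINE2, which was higher in 3 of 3 U87 resistant libraries than in any U87 sensitive library and lower in 3 of 3 U118 resistant libraries than in any U118 sensitive library. It was -2.52 for THBD, whose resistant libraries were lower in both lines and by more in U118. It was -1.22 for PLAT, which was higher in U87 resistant and lower in U118 resistant libraries without overlap, and this value was -0.999 and no longer called without U87 resistant replicate 1. For all 3, a difference in the origin of the cells of either U118 group cannot be told apart from a change with TMZ. Groups of 3 libraries are too small for a test of single outlying samples.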

How the results depend on the processing

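The calls of PLAU and SERPINE2 in U87 and of SERPINE2 and THBD in U118, with the differences between the lines of SERPINE2 and THBD, kept their direction and their side of the threshold under every alternative run. Members called higher in U87 numbered 2 to 4 (3 as reported), 2 where F3 was filtered out or lost its call and 4 with no fold change threshold. U87 members called lower were 1 in place of 0 (THBD) with a pseudocount of 0.1 and with no fold change threshold. U118 members called higher were 2 under median-ratio scaling (S100A10 and F3) and 1 without mitochondrial genes, without U118 sensitive replicate 2 or with no fold change threshold, in place of 0, so leaving out a library gave 0 to 1. Members whose change differed between the lines numbered 2 to 5 when a library was left out, 2 being without U87 resistant replicate 1, which dropped PLAT, and 5 without U118 resistant replicate 1, which added PLAU (-1.06) and ANXA2 (-1.15). Over all genes, a mean of at least 10 TPM gave 175 higher and 630 lower in U87 and 536 and 2152 in U118, from fewer genes tested. Median-ratio scaling gave 663 and 543, and 2337 and 1981. No fold change threshold gave 1306 and 4107 in U87. Leaving out a library gave 274 to 480 higher in U87, lowest without resistant replicate 1 or 3 (278), and 767 to 1353 higher in U118, lowest without resistant replicate 1, 2 (858) or 3 (796).

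Signs turned for differences that were not called: ANXA2 in U87 was 0.195 under median-ratio scaling, 0.0696 without mitochondrial genes and 0.00294 without U87 resistant replicate 3 (-0.190 to 0.00294 over the libraries left out). PLAT in U118 was 0.00232 under median-ratio scaling. SERPINB2 in U118 was 0.531 under median-ratio scaling, 0.169 without mitochondrial genes, and 0.0740, 0.193 and 0.0337 without U118 sensitive replicate 1 or resistant replicate 2 or 3 (-0.315 to 0.193 over the libraries left out). The difference between the lines of PLAUR was -0.0231 and -0.0264 without U118 sensitive replicate 3 or resistant replicate 1 (-0.0264 to 0.0859 over the libraries left out), and that of SERPINB2 was 0.0183 under median-ratio scaling. Apart from the number of genes tested or libraries used, the cause was not tested.

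In U87 the replicate numbers did not pair the libraries: deviations of same-numbered libraries from their group means had correlations of -0.067 to 0.011. In U118 the same correlations were 0.051 to 0.139, and each library correlated best with its own number. That is a hint of pairing from the data and not from the design. With the replicate block, 414 genes were higher and 1040 lower in U87 and 1363 and 4218 in U118, and the members called stayed at 3 and 2. TPM without counts leaves the counting error of low genes such as THBD and F3 unknown.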
